A study of Mus musculus with 36 samples.

Results

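Immediate-early genes are the genes a cell transcribes within minutes of a growth or stress signal, without waiting for new protein. Receptor signals reach them through MAP kinases, which act on the serum response factor SRF and its ternary complex partners at CArG boxes, and through CREB at cyclic AMP response elements (CREs). Many of their products are transcription factors that act on later genes, and others remove short-lived messenger RNAs or damp the signal. Fibroblasts that meet serum after starvation are the classic setting, and the enzymes and sorting used to take a tumour apart are known to induce the same genes.

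The 42 genes described here were taken by symbol from a list of known immediate-early genes, a rule that uses no measured value. All 42 were found among the 54115 genes with a transcript in the files. They were grouped by role as 11 genes of the AP-1 family and related bZIP factors, 4 EGR zinc fingers, 3 NR4A orphan receptors, 4 KLF zinc fingers, 4 IER genes, 4 other nuclear factors, 4 genes of RNA decay or antiproliferative function, and 8 kinases and other signalling genes.

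RNA was read in 36 libraries of mice with (WT) or without (dKO, constitutive double knockout) the histone variants macroH2A1 and macroH2A2. Bulk melanomas (6 WT and 6 dKO, in 3 batches), sorted CD8+ T cells and sorted cancer-associated fibroblasts (CAFs; 4 WT and 4 dKO each) came from tumours 50 days after 4-hydroxytamoxifen was put on the skin of Tyr-CreERT2 mice with conditional tumour alleles, Braf CA among them, on a mixed background (129S6 with B6;FVB). Both genotypes carried these tumour alleles, which recombine where the tyrosinase promoter drives the inducible Cre, in melanocytes. Immortalized dermal fibroblasts (iDFs, from male mice) were grown to confluence, starved in 0.5% serum for 24 h and read at 0 min or after 30 min in 10% serum, with 2 WT and 2 dKO libraries at each time. The labels do not say whether the iDF libraries of a genotype came from separate cell lines, so their p-values measure the spread between these cultures alone. Mouse ages are not given in the labels.

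The libraries held 17526681 to 85432438 counts in genes. Sorted CAFs held 42820 to 66160 TPM (a level per transcript length, scaled to the library) of 7 fibroblast markers in sum and CD8+ T cell libraries 6385 to 11070 TPM of 7 T cell markers, against at most 9.26 TPM of the T cell markers in CAFs. Transcript levels of H2afy, the gene of macroH2A1, were 80.4 to 89.0 TPM in WT CAFs and 77.2 to 87.6 TPM in dKO CAFs, so gene-level RNA did not separate the genotypes there, while H2afy2, the gene of macroH2A2, was 14.6 to 20.8 TPM in WT and 8.92 to 12.3 TPM in dKO CAFs. In iDFs both genes were lower in every dKO library than in every WT library. In CD8+ T cells H2afy overlapped between genotypes and H2afy2 was at most 0.24 TPM, so neither checks the labels there.

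Promoter sequences are shown first. Whether the motifs in them go with the serum changes was not tested. RefSeq windows on GRCm38.p6, from 250 bases before to 50 bases after a start, were held for 33 of the 42 genes. A CArG box stood in the windows of Egr2 and Zfp36, against 1.63% of all 32851 promoter windows. The CRE, TGACGTCA, stood in Maff, Btg2 and Plk2 (1.79% of all windows), and the AP-1 element TGANTCA in Csrnp1 and Zfp36l1 (7.81%). The CArG box was read as CC, then A or T only for 6 bases, then GG, both strands were searched, and none of the stretches shown held another of the 3 motifs. A match is a description of the letters, and the windows of Fosl1, Ier2, Egr1, Egr3, Trib1, Sik1, Myc, Klf10 and Arc were not looked at. The stretches below carry 50 bases on each side of the motif, which is in capitals.
Egr2, chr10:67537747-67537856, plus strand, CArG box: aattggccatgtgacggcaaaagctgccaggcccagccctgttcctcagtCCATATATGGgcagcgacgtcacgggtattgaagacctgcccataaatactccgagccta
Zfp36, chr7:28379227-28379336, minus strand, CArG box: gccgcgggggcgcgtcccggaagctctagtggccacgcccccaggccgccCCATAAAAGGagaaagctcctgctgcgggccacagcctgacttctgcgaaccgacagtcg
Plk2, chr13:110394932-110395039, plus strand, CRE: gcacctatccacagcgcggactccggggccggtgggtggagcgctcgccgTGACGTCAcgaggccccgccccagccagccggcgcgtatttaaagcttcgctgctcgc
Btg2, chr1:134079264-134079371, minus strand, CRE: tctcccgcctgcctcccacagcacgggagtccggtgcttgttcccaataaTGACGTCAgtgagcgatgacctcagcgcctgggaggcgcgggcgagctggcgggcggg

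The genes are compact. Their median span on the chromosome was 5801 bases, against 24548 bases for the 12835 protein-coding genes tested in iDFs. Jun, Junb, Jund, Ier2, Ier5, Ier5l and Rhob had protein-coding transcripts of a single exon only, 7 of 42 genes against 2.3% of those 12835.

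Levels per length, as TPM, were highest in the sorted CAFs. The 42 genes summed to 16916 to 23152 TPM in WT CAFs and 25600 to 27878 TPM in dKO CAFs, or 1.69% to 2.79% of all transcripts. They summed to 1407 to 2106 TPM in bulk melanomas and 1135 to 1471 TPM in starved iDFs. In CD8+ T cells the sums were 5693 to 10882 TPM in WT and 11769 to 14026 TPM in dKO libraries. In serum-treated iDFs they were 7639 to 8711 TPM in WT and 9882 to 11025 TPM in dKO libraries. The CAFs, freshly dissociated and sorted, thus held more of this RNA than the fibroblasts given serum in culture. Fos, the AP-1 subunit, was at 3055 to 3873 TPM in the 4 WT CAF libraries, at 184.8 and 461.3 TPM in the serum-treated WT iDFs, and at 17.0 to 46.7 TPM in the WT bulk melanomas.

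**Figure D1:**
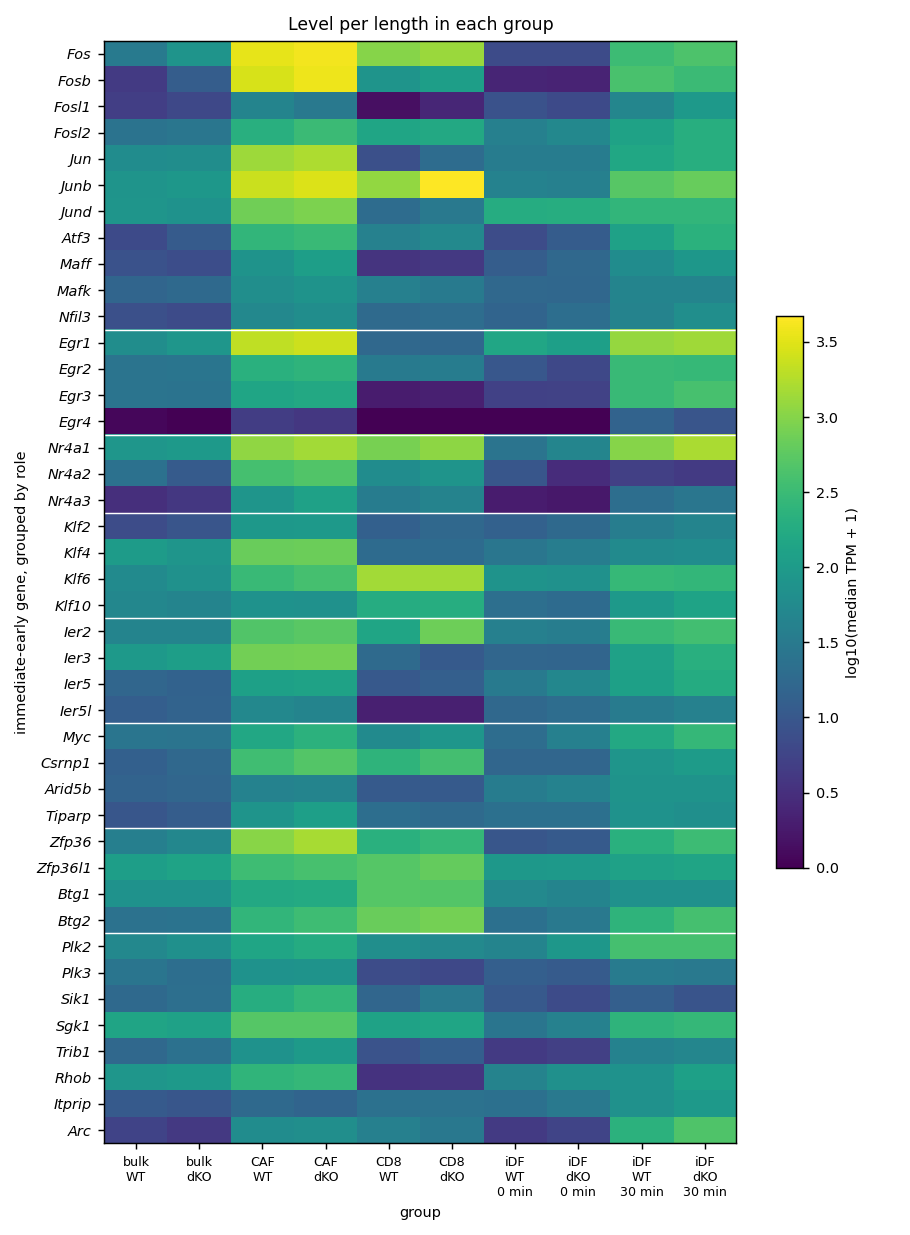
Median level per length of each of the 42 genes (rows, grouped by role) in each group (columns), as log10(TPM + 1). The 2 CAF columns are the brightest for most rows, with Fos at 3442 and 4009 TPM, and the bulk and starved iDF columns are the darkest. Levels of Egr3, Klf6 and Nr4a2 depend in part on which transcripts are counted, as the text gives.

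In WT CAFs, 5 of the 42 genes ranked among the 100 genes with the highest median TPM, of 54115: Fos (rank 28), Fosb (33), Junb (42), Egr1 (47) and Jun (69). These are AP-1 subunits and the founding EGR factor. In dKO CAFs Nr4a1 and Zfp36 joined them. In the CD8+ T cells, Klf6 in both genotypes and Junb (rank 13) and Fos (rank 83) in dKO stood in the top 100. Egr1 (rank 85 in WT) was the sole member there in serum-treated WT iDFs, and bulk melanomas and starved iDFs had none.

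Set library by library, 23 of the 42 genes were higher in every WT CAF library than in both serum-treated WT iDF libraries, against 29.3% of 15764 genes with a median of at least 1 TPM in either group. They included Fos, Fosb, Jun, Junb, Jund, Atf3, Egr1, Ier3, Nr4a2, Nr4a3, Sik1 and Zfp36. Another 6 were lower in every WT CAF library, against 45.3% of those genes: Arc, Arid5b, Egr3, Egr4, Itprip and Plk2. Arc, a postsynaptic protein gene that is also a classic SRF target, was at a median of 60.4 TPM in WT CAFs and 229.4 TPM in serum-treated WT iDFs. CAFs and iDFs differ in cell state and in handling, which cannot be told apart here.

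Against WT bulk melanomas, which were snap frozen, WT CAFs held more RNA of nearly all 42 genes. In a fit of the 14 WT libraries of tumour, CAFs and CD8+ T cells, 40 of the 42 genes were called higher in CAFs and none lower (edgeR quasi-likelihood test, called where the adjusted p was below 0.05 and the log2 difference exceeded 0.75 in size), where 14.6% of the 19488 genes tested were called higher. The median log2 difference was 2.97 over the 42 genes and -0.10 over all genes. Klf10 (log2 0.46 ± 0.22, SE, adjusted p = 0.10) and Itprip (0.59 ± 0.19, adjusted p = 0.0199) were not called.

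The greatest differences were of AP-1 genes. Fosb was higher by 9.40 ± 0.47 on the log2 scale (SE, adjusted p = 3e-08), Fos by 6.67 ± 0.29 (adjusted p = 1.4e-08) and Atf3, a stress-induced partner of Jun, by 5.19 ± 0.24 (adjusted p = 1.9e-08). Egr1 followed at 5.12 ± 0.27, Nr4a3 at 4.92 ± 0.28, and Zfp36, whose product binds AU-rich messenger RNAs and shortens their life, at 4.69 ± 0.24. All 11 genes of the AP-1 group and all 3 NR4A receptors were called higher. The fibroblast markers themselves summed to 3862 to 6042 TPM in WT bulk melanomas against 42820 to 53930 TPM in WT CAFs. The part of fewer fibroblasts and of less RNA per fibroblast in bulk tissue was not tested. Of 12 genes of heat shock and dissociation stress, 7 were called higher in CAFs than in bulk melanomas.

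CD8+ T cells carried another mixture. Against the same bulk melanomas, 25 genes were called higher in WT CD8+ T cells and 14 lower, where 29.3% of all genes were called higher and 42.8% lower, and the medians were 1.23 over the 42 genes and -0.49 over all genes. Fos was higher by 5.34 ± 0.27 (SE, adjusted p = 2.3e-09), the antiproliferative gene Btg2 by 5.34 ± 0.21 (adjusted p = 2.7e-10), Fosb by 5.05 ± 0.40 and Csrnp1 by 4.23 ± 0.30. All 3 NR4A receptors, induced by T cell receptor signals, and all 4 genes of RNA decay or antiproliferative function were called higher. In the other direction, Rhob (-4.86 ± 0.25), Egr3 (-4.33 ± 0.37), Ier5l (-3.10 ± 0.47), Jun (-2.56 ± 0.21) and Jund (-1.88 ± 0.19) were called lower.

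Jun and Junb, which encode partners of Fos, thus stood apart in T cells. Jun was at 4.82 to 11.5 TPM in the WT CD8+ T cell libraries and Junb at 158.3 to 2377 TPM. The 7 single-exon genes had a median log2 difference of -1.88 in this comparison and the others 1.62, and the CD8+ T cell libraries were made with a low-input kit unlike that of the bulk melanomas. The part of gene structure and kit in these differences was not tested.

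The serum comparison asked how starved iDFs respond within 30 min. All 42 genes were higher in both serum-treated than in both starved WT libraries, where 25.1% of the 15047 genes tested were, and the same held in dKO iDFs, where 25.2% were. In WT iDFs 30 of the 42 genes were called higher and none lower, against 1.54% of all genes called higher, and in dKO iDFs 37 of 42 were called higher, against 2.14%. The median log2 change was 2.44 in WT and 2.74 in dKO iDFs, and that over all genes was within 0.01 of 0 in both. Of the calls, 19 of 30 in WT and 23 of 37 in dKO iDFs were kept whichever of the 8 libraries was left out. All 30 genes called in WT were called in dKO iDFs, and 7 were called in dKO alone: Fosl1, Fosl2, Egr1, Nr4a2, Ier2, Ier5l and Btg1. With the replicate number as a block in the fit, 6 of these 7, all but Btg1, were called in WT iDFs too.

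**Figure D2:**
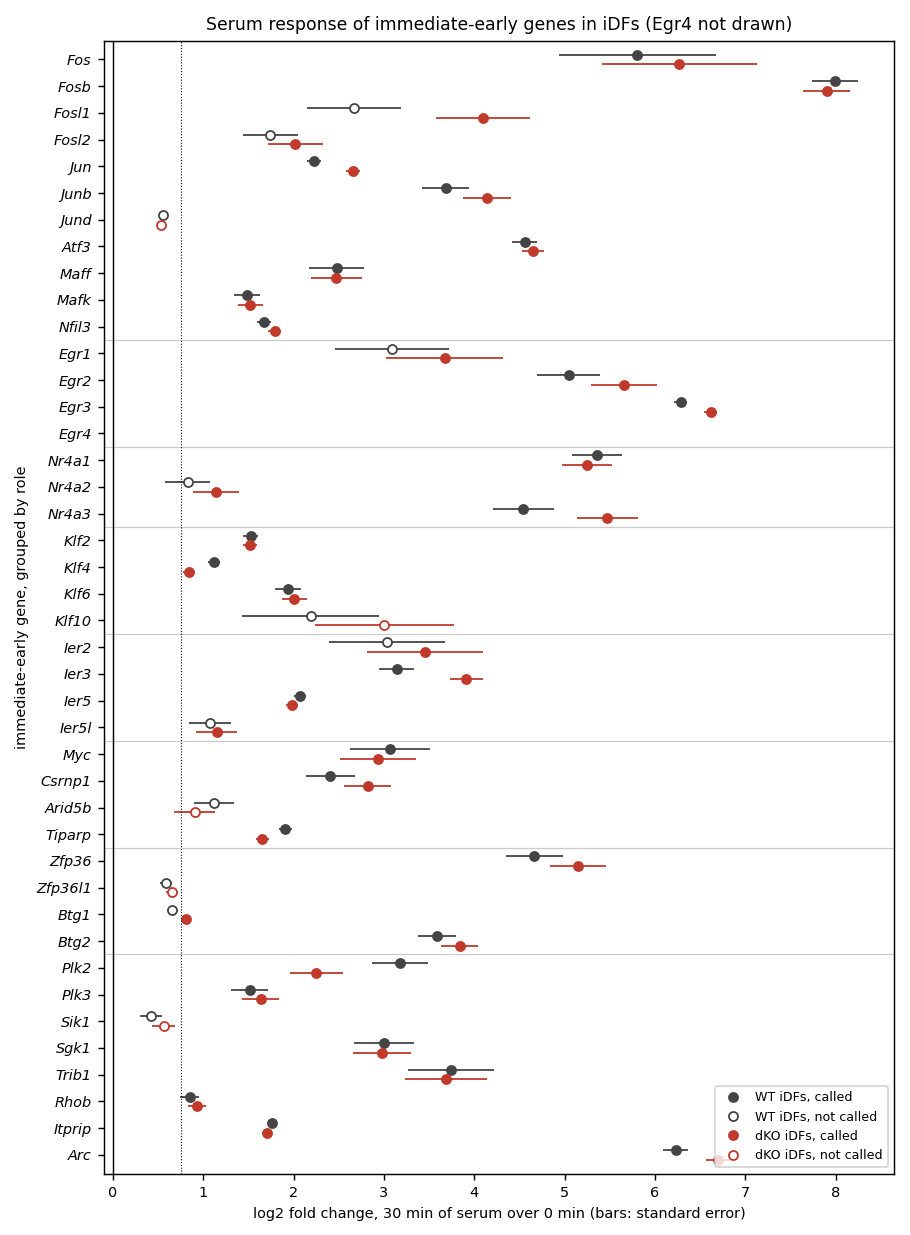
log2 fold change after 30 min of serum in WT (grey) and dKO (red) iDFs for 41 genes, with standard errors as bars and filled points for called genes. Values run from 0.42 for Sik1 to 7.996 for Fosb in WT, and the 2 genotypes lie close together for most genes. Egr4 is left out because its starved libraries held at most 1 count.

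Among AP-1 genes, Fosb and Fos responded most. Fosb was at 2.95 and 3.17 CPM (counts scaled to library size with TMM factors) in the starved WT libraries and at 882.2 and 678.3 CPM after serum, a log2 change of 7.996 ± 0.258 (SE, adjusted p = 0.00013). Fos went from 8.17 and 5.32 CPM to 541.7 and 220.3 CPM, a log2 change of 5.81 ± 0.87 (adjusted p = 0.0415). The starved and treated libraries lay far apart for both genes. The call of Fos was lost when any of the 8 iDF libraries was left out (adjusted p from 0.0586 to 0.28), while that of Fosb was kept in all 8. Atf3 rose from 4.44 and 5.24 CPM to 125.7 and 101.4 CPM (4.56 ± 0.14, adjusted p = 3.2e-06) and Junb from 45.8 and 34.8 CPM to 585.0 and 453.5 CPM (3.69 ± 0.26, adjusted p = 0.00403). Jun rose from 65.7 and 57.8 CPM to 299.0 and 277.4 CPM (2.22 ± 0.08, adjusted p = 1.3e-06). The other called genes of the group were Maff (2.48), Nfil3 (1.68) and Mafk (1.48 on the log2 scale). Jund, an AP-1 subunit, went from 163.8 and 161.9 CPM to 233.0 and 244.8 CPM, a change of 0.55 ± 0.04 that passed the adjusted p (0.00013) but not the fold threshold.

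The EGR zinc fingers had the greatest median change by role, 5.67 on the log2 scale in WT iDFs. Egr3 went from 6.57 and 7.01 CPM to 518.0 and 541.2 CPM (6.29 ± 0.07, adjusted p = 3e-10), which was the smallest adjusted p of the 42 genes. Egr2, whose promoter window holds the CArG box shown above, went from 13.6 and 12.4 CPM to 515.7 and 342.0 CPM (5.05 ± 0.35, adjusted p = 0.00433). Egr4 held 0 and 1 counts in the starved WT libraries and 422 and 381 counts after serum, a ratio per total count of 823.6 with an exact 95% interval of 147.4 to 32571 that covers counting error only. In dKO iDFs it held 0 counts in both starved libraries and 305 and 231 after serum, at least 198.7-fold higher against a floor of 3 counts over the group. With Egr4 at that bound, the dKO median stayed at 2.74. Egr1, already at 349.1 and 177.3 CPM in the starved WT libraries, reached 2668 and 1826 CPM, a log2 change of 3.09 ± 0.63 with an adjusted p of 0.0856.

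The NR4A receptors differed among themselves. Nr4a1 rose from 27.5 and 40.5 CPM to 1376 and 1407 CPM (5.36 ± 0.28, adjusted p = 0.00168) and Nr4a3 from 1.83 and 3.76 CPM to 60.2 and 68.1 CPM (4.54 ± 0.34, adjusted p = 0.00316). Nr4a2 went only from 3.62 and 5.07 CPM to 6.49 and 8.89 CPM (0.83 ± 0.25, adjusted p = 0.105). Nr4a1 and Nr4a3 were thus called and Nr4a2 was not, though in dKO iDFs Nr4a2 was called as well (1.14 ± 0.25, adjusted p = 0.0266). That call was lost with a length offset (adjusted p = 0.58) and in 3 of the 8 fits with an iDF library left out, and with a replicate block Nr4a2 was called in WT as well.

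Of the genes whose products act on RNA or damp the signal, Zfp36 rose from 11.9 and 12.2 CPM to 360.7 and 249.6 CPM (4.66 ± 0.32, adjusted p = 0.00371). Btg2 rose from 36.3 and 29.8 CPM to 434.9 and 360.3 CPM (3.59 ± 0.21, adjusted p = 0.00167). Their relatives Zfp36l1 (0.59 ± 0.07) and Btg1 (0.65 ± 0.05) passed the adjusted p (0.0012 and 0.00015) under the fold threshold. The pseudokinase gene Trib1 rose by 3.74 ± 0.48 (adjusted p = 0.0237) and Ier3, an apoptosis regulator gene, from 8.10 and 8.36 CPM to 79.8 and 65.2 CPM (3.14 ± 0.19, adjusted p = 0.00058).

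Among the kinases and signalling genes, Arc rose most, from 5.19 and 5.95 CPM to 450.9 and 382.9 CPM (6.23 ± 0.14, adjusted p = 1.3e-06). The polo-like kinase gene Plk2, with the CRE shown above, rose from 80.4 and 54.4 CPM to 552.8 and 671.5 CPM (3.18 ± 0.31, adjusted p = 0.0111). Sgk1 rose by 3.00 and Plk3 by 1.51 on the log2 scale. Sik1, a CREB-responsive salt-inducible kinase gene, had the smallest value of the 42 genes, from 25.9 and 23.7 CPM to 31.8 and 34.7 CPM (0.42 ± 0.12, adjusted p = 0.0936). Of the remaining genes called in WT iDFs, the changes ran from 0.85 for Rhob to 3.07 for Myc.

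**Figure D3:**
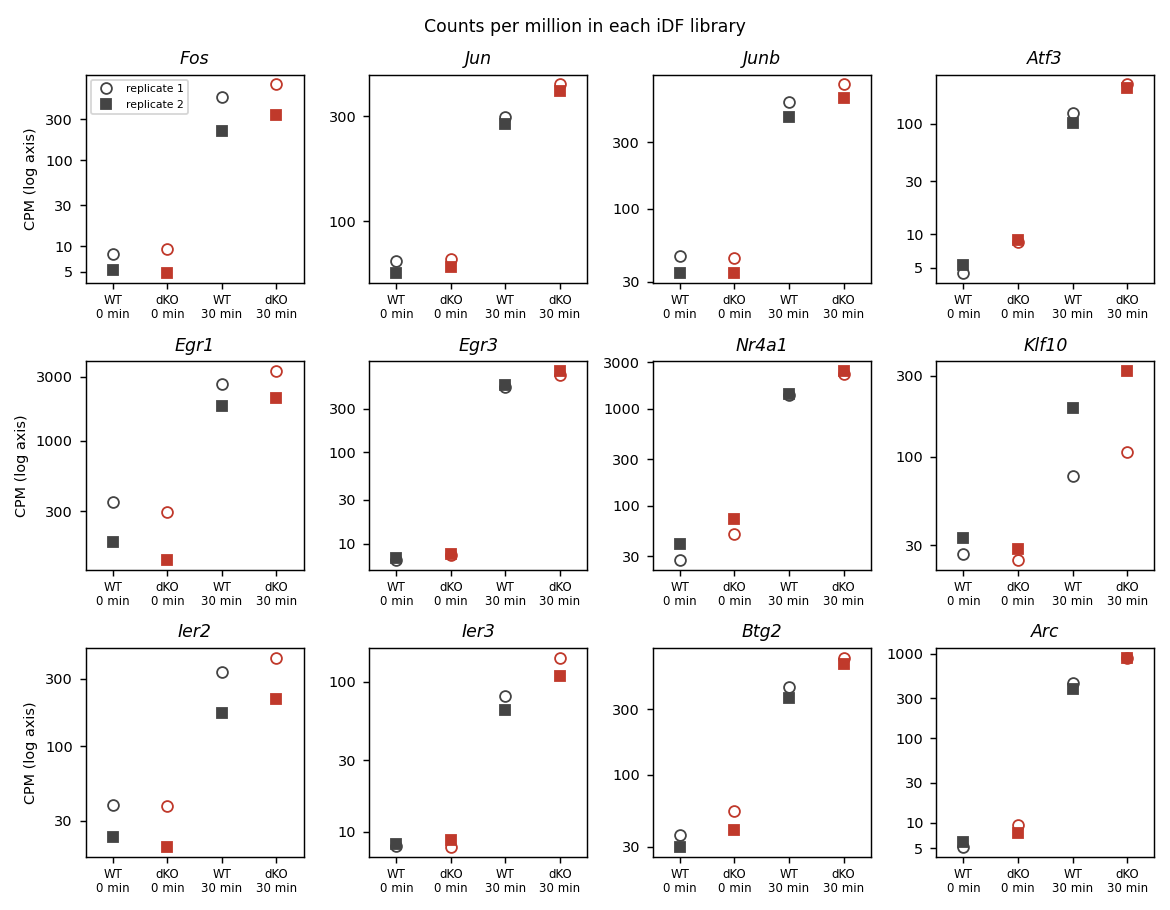
CPM of 12 of the genes in each of the 8 iDF libraries on log axes, with WT in grey, dKO in red, replicate 1 as open circles and replicate 2 as filled squares. Serum-treated libraries lie above starved ones in every panel. Replicate 1 is above replicate 2 for Fos (541.7 against 220.3 CPM in treated WT iDFs), and below it for Klf10 (77.2 against 194.7 CPM).

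The same-numbered libraries of the 2 genotypes moved together in these genes. After serum, 14 genes were higher in replicate 1 and 27 higher in replicate 2 in both genotypes, so 41 of 42 had the same sign. Fos was at 771.4 and 332.3 CPM in dKO replicates 1 and 2, and Ier2, a small nuclear factor gene, at 333.5 and 173.2 CPM in WT and at 420.4 and 216.9 CPM in dKO. The order was the other way for Klf10, a TGF-beta-inducible repressor gene (106.8 and 320.4 CPM in dKO), Fosl1 (33.0 and 59.7 CPM in WT, 64.1 and 121.8 CPM in dKO) and Myc (139.5 and 231.6 CPM in WT, 249.9 and 416.3 CPM in dKO). Across the 42 genes the log2 difference between replicates 1 and 2 had a Pearson r of 0.97 between the genotypes at 30 min and of 0.89 at 0 min. The 42 points share libraries and are not independent. In the serum-treated WT iDFs this log2 difference was 0.94 for Ier2, 0.55 for Egr1, -0.56 for Fosl2 and -1.33 for Klf10, genes whose serum changes of 1.74 to 3.09 were not called in WT. With a replicate block, Ier2, Egr1 and Fosl2 were called there, while Klf10 (adjusted p = 0.12) was not.

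Beyond the 42 genes, the lists of the same pathway responded in part. Of 18 later serum targets and cytokines, 13 were called higher in WT and 14 in dKO iDFs, with the chemokine gene Cxcl1 up by 6.36 ± 0.10 in WT and 7.34 ± 0.09 in dKO (SE, adjusted p = 1.2e-09 and 1.6e-10). Of 25 genes of the SRF and MAP kinase pathway, 6 were called higher and 1 lower in WT iDFs, and 6 higher and none lower in dKO iDFs. Srf itself rose by 1.96 ± 0.13 in WT (adjusted p = 0.00076), the phosphatase gene Dusp5, a brake on ERK, by 3.21 ± 0.23 (adjusted p = 0.00238), and Mrtfa, an SRF coactivator gene, was lower by -1.99 ± 0.27 (adjusted p = 0.00361). Of 12 heat shock genes, 4 were called higher in each genotype.

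The test of the serum response between genotypes is the interaction. It called none of the 42 genes, in a fit that called 0.0133% of all genes. Without adjustment, 6 genes had p under 0.05, where 364 of the 15047 genes tested had. The response in dKO iDFs was greater for Jun, Egr3, Ier3 and Arc and smaller for Klf4 and Tiparp, and DESeq2 also called none. The greatest of these 6 was Ier3 (log2 difference of responses 0.78 ± 0.27, SE, adjusted p = 1), and Jun (0.44 ± 0.11) had the smallest p, 0.00289 before adjustment. With a replicate block, Jun (adjusted p = 0.0125) and Junb (adjusted p = 0.00727) passed the adjusted p, with differences of 0.44 and 0.46 below the fold threshold. For Fos the difference was 0.465 ± 1.204 on the log2 scale (adjusted p = 1). Across the 42 genes the changes in WT and dKO iDFs had a Pearson r of 0.98, as a description. Of the 42, 28 changed more in dKO, or 27 of 41 without Egr4, where 51.65% of all genes did. The genes called in dKO iDFs alone are therefore not shown to respond differently.

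dKO and WT iDFs did differ in levels of some of these genes. In starved iDFs, 1 of the 42 genes was called higher in dKO and none lower, against 3.93% of all genes called higher. This was Atf3, at 4.44 and 5.24 CPM in WT and 8.57 and 8.93 CPM in dKO (log2 0.86 ± 0.16, SE, adjusted p = 0.00576), a call lost without WT 0 min replicate 1. In serum-treated iDFs, 5 were called higher and none lower, against 3.88%. The share in starved iDFs, 1 of 42, was near that of all genes, and 3 were called with DESeq2 or with a length offset. The share in serum-treated iDFs, 5 of 42, was above that of all genes.

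Of the 5, Arc differed most. It was at 450.9 and 382.9 CPM in serum-treated WT and 903.0 and 887.5 CPM in serum-treated dKO iDFs (log2 1.10 ± 0.10, SE, adjusted p = 0.00027), with a difference in the same direction in starved iDFs (0.63 ± 0.16, adjusted p = 0.0231). Atf3 was at 125.7 and 101.4 CPM in WT and 227.9 and 211.2 CPM in dKO (0.95 ± 0.10, adjusted p = 0.00041). Ier3 was at 79.8 and 65.2 CPM in WT and 144.1 and 108.8 CPM in dKO (0.80 ± 0.15, adjusted p = 0.0102), while its starved levels, 8.10 and 8.36 CPM against 7.93 and 8.89 CPM, overlapped. Rhob, a small GTPase gene, was at 103.4 and 98.7 CPM in WT and 192.0 and 160.1 CPM in dKO (0.80 ± 0.10, adjusted p = 0.00085). Its difference in starved iDFs was 0.72 ± 0.10 (adjusted p = 0.00166), below the fold threshold, and its interaction was 0.08 ± 0.14. Btg2 was at 434.9 and 360.3 CPM in WT and 710.3 and 644.2 CPM in dKO (0.77 ± 0.18, adjusted p = 0.0309). For each of the 5 the serum-treated groups did not overlap. Whichever iDF library was left out, Arc and Atf3 were still called after serum, while Ier3 was lost in 2 of these 8 fits, Btg2 in 4 and Rhob in 1. Ier3 was also lost with the 2 groups fitted alone (adjusted p = 0.0582), and Btg2 with no filter beyond 1 count (adjusted p = 0.0821).

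Below the fold threshold, Ier5 (0.73 ± 0.07 starved, adjusted p = 7.6e-05, and 0.64 ± 0.06 treated, adjusted p = 0.00011) passed the adjusted p at both times. So did Nfil3 (0.56 ± 0.08 starved, adjusted p = 0.00076, and 0.67 ± 0.07 treated, adjusted p = 0.00012). Itprip (0.52 ± 0.06 starved, adjusted p = 0.00017, and 0.47 ± 0.05 treated, adjusted p = 0.00023) and Klf2 (0.44 and 0.44) passed at both times as well. Egr3 (0.48 ± 0.05, adjusted p = 0.00019) and Jun (0.50 ± 0.07, adjusted p = 0.00109) passed it after serum, and Klf4 in starved (0.52 ± 0.07, adjusted p = 0.00052) and treated cells (0.24 ± 0.07, adjusted p = 0.0211). Zfp36l1 also passed after serum (0.226 ± 0.064, adjusted p = 0.0247). Jun did not differ at 0 min beyond its error (0.06 ± 0.08). Sik1 was the gene that passed in the other direction at both times, with starved levels of 25.9 and 23.7 CPM in WT and 17.4 and 14.5 CPM in dKO (-0.63 ± 0.13, adjusted p = 0.00562) and treated levels of 31.8 and 34.7 against 21.0 and 26.3 CPM (-0.50 ± 0.12, adjusted p = 0.0151). Egr4 was lower in dKO after serum as well (-0.662 ± 0.155, adjusted p = 0.0128). Fos gave 0.07 ± 1.02 at 0 min and 0.54 ± 0.64 at 30 min.

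In serum-treated iDFs 36 of 42 genes lay above 0 with a median of 0.43, against 48.86% of all genes above 0. Groups did not overlap for 24 genes higher and 2 genes lower in dKO, where 31.6% of all genes were higher and 33.6% lower without overlap. In starved iDFs 24 were higher and 5 lower, where 34.5% and 34.8% of all genes were, and the median was 0.16. Egr4, with at most 1 count in starved libraries, gives no fold there, and the median without it was 0.16.

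**Figure D4:**
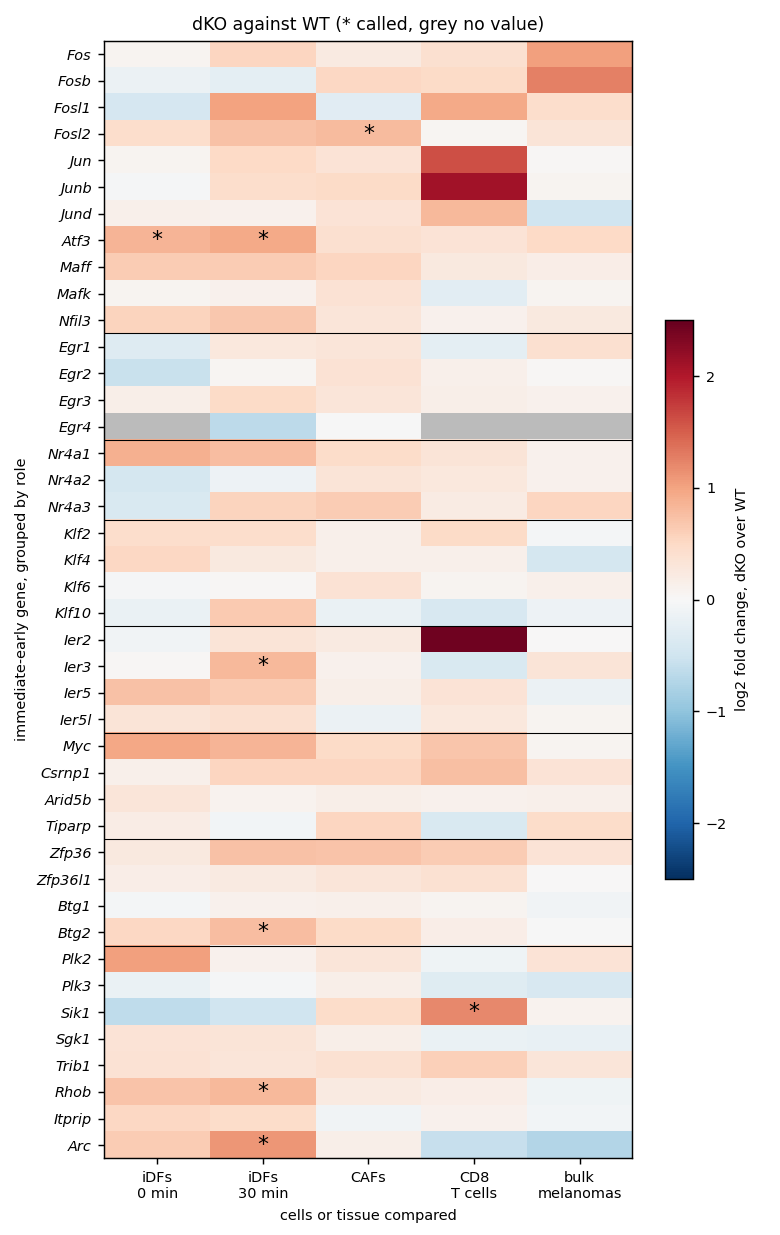
log2 fold change of dKO over WT for the 42 genes (rows, grouped by role) in starved and serum-treated iDFs, CAFs, CD8+ T cells and bulk melanomas (columns), with stars for called genes and grey where no value is given. Most cells are pale red, between 0 and 1. The darkest are Ier2 (2.42) and Junb (2.09) in CD8+ T cells, neither of them called.

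In CAFs, dKO libraries held slightly more RNA of most of these genes, and 1 of the 42 was called higher and none lower, against 1.45% of the 15786 genes tested. The gene was Fosl2, which encodes the Fos relative Fra-2, at 678.8, 692.2, 395.8 and 630.9 CPM in WT and 1076, 907.2, 952.2 and 1169 CPM in dKO CAFs (log2 0.79 ± 0.18, SE, adjusted p = 0.0323). All 4 dKO libraries were above all 4 WT libraries. The call was lost when any of 7 of the 8 was left out (adjusted p up to 0.081) and without the term for sex. The difference was 1.05 in females and 0.53 in males, as log2 ratios of means of 2 libraries each.

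Another 6 genes passed the adjusted p below the fold threshold. Zfp36 was at 1613, 1485, 1003 and 1256 CPM in WT and 2607, 1893, 2148 and 1993 CPM in dKO CAFs (0.71 ± 0.14, adjusted p = 0.0206). Tiparp, an ADP-ribosyltransferase gene induced by dioxin, differed by 0.53 ± 0.14 (adjusted p = 0.0486), Fosb by 0.52 ± 0.13 (adjusted p = 0.0412), Sik1 by 0.47 ± 0.12 (adjusted p = 0.0497), Atf3 by 0.40 ± 0.09 (adjusted p = 0.0303) and Trib1 by 0.39 ± 0.09 (adjusted p = 0.0371). Fosb was at 3758 to 5290 CPM in WT and 6277 to 7139 CPM in dKO libraries, without overlap. Fos (0.22 ± 0.12, adjusted p = 0.31) and Jun (0.35 ± 0.13, adjusted p = 0.15) were not called, and their groups overlapped, with Fos at 3197 to 3802 CPM in WT and 3485 to 4711 CPM in dKO libraries.

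Of the 42 genes, 37 had log2 differences above 0 in CAFs, with a median of 0.30, while 50.36% of all genes did, with a median of 0.00. Groups did not overlap for 11 genes, all higher in dKO, where 7.09% of all genes were higher without overlap: Fosb, Fosl2, Junb, Atf3, Egr2, Klf6, Myc, Csrnp1, Zfp36, Zfp36l1 and Btg2. The genes move together in a library, so these counts are not independent observations. WT replicate 3 was the lowest WT library for 10 of these 11 genes. Markers of other cells moved with genotype as well. The 7 melanocyte markers summed to 401.0 to 577.9 TPM in WT and 89.2 to 365.0 TPM in dKO CAFs, and the 5 keratinocyte markers to 45.7 to 82.0 TPM in WT and 14.4 to 42.7 TPM in dKO. The 12 heat shock genes summed to 4151 to 4634 TPM in WT and 4500 to 5282 TPM in dKO. Mitochondrial transcripts took 1.91% to 2.59% of counts in WT and 1.36% to 1.88% in dKO CAFs, without overlap. The 7 fibroblast markers summed to 42820 to 53930 TPM in WT and 50100 to 66160 TPM in dKO, and 1 of them, Dcn, did not overlap, at 2677 to 3953 TPM in WT and 4163 to 5561 TPM in dKO. The part of these in the differences of the 42 genes was not tested.

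Of the 18 later serum targets and cytokines, 3 were called higher and 1 lower in dKO CAFs. The chemokine genes Ccl2 (0.94 ± 0.16, SE, adjusted p = 0.0122) and Cxcl1 (0.95 ± 0.20, adjusted p = 0.0261) and the cytokine gene Il6 (1.00 ± 0.21, adjusted p = 0.025) were higher, and Hbegf, an EGF receptor ligand gene, was lower (-0.83 ± 0.15, adjusted p = 0.0148). None of the 25 SRF and MAP kinase genes or of the 12 heat shock genes was called in CAFs.

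**Figure D5:**
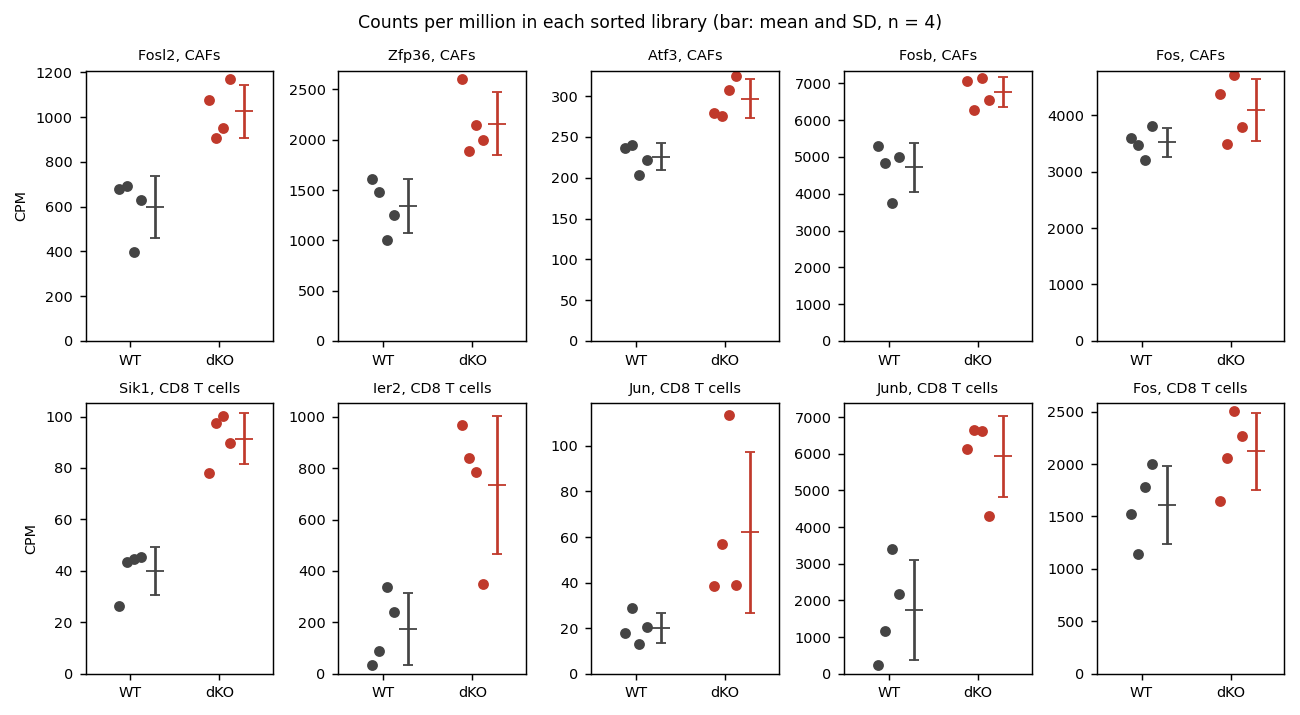
CPM of 5 genes in each of 8 CAF libraries (top) and 5 genes in each of 8 CD8+ T cell libraries (bottom), as points for single libraries with the mean and SD (n = 4) beside them and axes from 0. WT (grey) and dKO (red) points do not overlap for Fosl2, Zfp36, Atf3 and Fosb in CAFs or for Sik1, Ier2, Jun and Junb in CD8+ T cells. Fos overlaps in both.

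In CD8+ T cells, 1 of the 41 genes tested was called higher in dKO and none lower, against 0.261% of the 14944 genes tested. This was Sik1, at 26.2, 43.5, 44.6 and 45.5 CPM in WT and 78.0, 97.5, 100.3 and 89.6 CPM in dKO libraries (log2 1.202 ± 0.198, SE, adjusted p = 0.0488). The groups lay apart, and the ratio of means was 1.44 in females and 0.96 in males on the log2 scale. The call was lost when any of the 8 libraries was left out (adjusted p up to 0.16), with RLE size factors in place of TMM factors and with a length offset.

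Larger differences in less even genes were not called. Ier2 was at 32.7, 89.8, 337.3 and 242.1 CPM in WT and 966.4, 838.2, 785.3 and 348.2 CPM in dKO (2.42 ± 0.47, adjusted p = 0.0783). Junb, an AP-1 subunit active in T cells, was at 226.3, 1159, 3402 and 2165 CPM in WT and 6135, 6657, 6608 and 4313 CPM in dKO (2.09 ± 0.57, adjusted p = 0.22). Jun was at 17.8, 29.1, 13.0 and 20.5 CPM in WT and 38.3, 57.1, 113.6 and 39.1 CPM in dKO (1.61 ± 0.36, adjusted p = 0.12). For these 3 genes and Sik1, 4 of 41, all dKO libraries were above all WT libraries, where 4.09% of all genes were. DESeq2 called all 4 (Sik1, Jun, Junb and Ier2) higher. WT replicate 1 held the lowest Junb, Ier2 and Sik1 of the 8 libraries.

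The 3 genes with the greatest differences in CD8+ T cells, Ier2, Junb and Jun, are of a single exon. The 7 single-exon genes had a median log2 difference of 0.81 and the other 34 tested genes 0.14, and in CAFs these medians were 0.22 and 0.31. Fos, with several exons, was at 1525, 1138, 1781 and 2003 CPM in WT and 1646, 2059, 2509 and 2264 CPM in dKO (0.41 ± 0.20, adjusted p = 0.56), and Nr4a1 differed by 0.32 ± 0.22. Melanocyte markers summed to 187.4 TPM in the highest WT CD8+ T cell library and to at most 7.94 TPM in dKO, and the fibroblast markers to 0.45 to 406.9 TPM in WT and 31.8 to 895.3 TPM in dKO. The part of gene structure and of other cells in these differences was not tested.

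In bulk melanomas, none of the 41 genes tested was called, where 0.0442% of the 18097 genes were called in either direction. Without adjustment, 4 genes had p under 0.05 above 0 and 1 below, where 1360 of the 18097 genes tested had such a p. DESeq2 also called none. The 3 smallest p were those of Tiparp (log2 0.45 ± 0.10, SE, adjusted p = 0.33), Fos (1.02 ± 0.32, adjusted p = 0.49) and Arc (-0.74 ± 0.23, adjusted p = 0.49). Fos ran from 24.2 to 72.4 CPM with a median of 49.4 CPM in WT and from 62.5 to 159.7 CPM with a median of 112.1 CPM in dKO tumours. Taken batch by batch, the log2 of the ratio of dKO to WT means came to 1.05 in batch 1, 1.83 in batch 2 and 0.73 in batch 3. These ratios have no term for sex. In batch 3 both WT tumours were from females and both dKO tumours from males, so genotype and sex cannot be told apart there. In batch 2 both dKO tumours were from males and the WT tumours from either sex. Fosb ran from 2.76 to 24.6 CPM in WT and from 7.28 to 113.9 CPM in dKO tumours (1.26 ± 0.61, adjusted p = 0.67). Jun did not differ beyond its error (0.04 ± 0.17, adjusted p = 0.97). No gene of the 41 had groups without overlap, where 0.669% of all genes had. Of the 6 WT tumours 4 were from females and of the 6 dKO tumours 1, which the fit takes as a term.

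Across the 5 comparisons of dKO with WT, 41 genes were tested in all. Of these, 14 had differences above 0 in all 5 and none below 0 in all 5, where 7.94% and 5.55% of the 11624 genes tested in all 5 did. The genes move together in a library, and the starved and serum-treated iDFs are cultures of the same kind. The 14 were Fos, Fosl2, Jun, Atf3, Maff, Nfil3, Egr3, Nr4a1, Myc, Csrnp1, Arid5b, Zfp36, Zfp36l1 and Trib1. With a library left out, all of these but Atf3 and Zfp36 turned below 0 in at least 1 of the 5 comparisons. In bulk melanomas some values were near 0, such as 0.005 ± 0.125 for Zfp36l1 and 0.037 ± 0.173 for Jun (log2, SE). Atf3 was the gene called in 2 of the comparisons, with log2 differences of 0.86 in starved and 0.95 in serum-treated iDFs beside 0.40 in CAFs, 0.34 in CD8+ T cells and 0.50 in bulk melanomas. Zfp36 gave 0.24, 0.73, 0.71, 0.64 and 0.35 in the same order. No test of the difference between sources was made.

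Transcripts of a gene were not of 1 kind in all sources. Of the 42 genes, 10 have an annotated retained-intron transcript. For Egr3 that transcript took a median of 85.2% of the gene's counts in WT bulk melanomas and 87.6% in dKO, against 42.4% and 34.6% in WT and dKO CAFs and 35.5% in serum-treated iDFs of both genotypes. Counted on protein-coding transcripts alone, Egr3 in WT bulk melanomas had a median of 7.71 TPM in place of 24.9 TPM. In CD8+ T cells Egr3 rested on as few as 20 counts. For Klf6, a zinc finger gene, the retained-intron transcript took 10.1% to 12.1% of the counts in CD8+ T cells and at most 4.70% in any other library. The median level of Klf6 in WT CD8+ T cells was 1471 TPM over all transcripts and 571.6 TPM over protein-coding ones. By transcript, Klf6-203, annotated for nonsense-mediated decay, had a median of 632.1 TPM there, the retained-intron transcript Klf6-202 476.3 TPM and the protein-coding Klf6-201 363.1 TPM. For Fosb the share was 11.5% to 16.3% in CAFs and 1.07% to 2.76% in serum-treated iDFs.

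The level of Nr4a2 per length depended on 1 transcript in several groups. A short processed transcript, Nr4a2-204, had a median of 268.6 TPM of the gene's 384.8 TPM in WT CAFs. Over protein-coding transcripts the median of Nr4a2 was 113.5 TPM in WT CAFs. In dKO bulk melanomas, where the median of Nr4a2-204 was 0 TPM, the gene was at 10.2 and 10.3 TPM by the same measures. In starved WT iDFs it was 8.51 TPM over all transcripts and 2.75 TPM over protein-coding ones, and after serum 4.02 and 4.77 TPM. The direction of the serum change in median TPM thus depended on the transcripts counted, while the CPM given above were higher after serum. The fall over all transcripts rests on starved replicate 1, at 14.1 TPM. Starved replicate 2, at 2.89 TPM, lay below the serum-treated libraries, at 3.21 and 4.83 TPM.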

How the data were processed

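The authors quantified transcripts with Salmon 1.2.1 on GRCm38.p6, and the deposited tables hold estimated counts, TPM and effective lengths (other columns of each table) per transcript. Bulk melanoma, CAF and iDF RNA was poly-A selected and read as strand-specific libraries. The poly-A module and kit version of the bulk melanomas differed from those of CAFs and iDFs. CD8+ T cells were read with a low-input kit that does not mark strand. Here, estimated counts were summed per gene and rounded (99.15% of transcripts had a gene in the annotation, and the others held 0.25% to 0.52% of counts). TPM was summed per gene without change.

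Genes were filtered with filterByExpr (minimum count 10, total 15), scaled by TMM and tested with the quasi-likelihood test of edgeR 4.0.16 with Benjamini-Hochberg adjustment over all genes tested (R 4.3.3, Python 3.11.15). Genes were called where the adjusted p was below 0.05 and the log2 difference exceeded 0.75 in size. The 8 iDF libraries were fitted together, CAFs and CD8+ T cells with a term for sex, bulk melanomas with terms for sex and batch, and the WT tumour, CAF and CD8+ T cell libraries together with sex. The scripts were tested on simulated data. Alternatives were DESeq2 1.42.0, RLE size factors, no filter beyond 1 count, a length offset, no fold threshold, no sex or batch term, a replicate block, the groups compared alone, protein-coding transcripts alone and each library left out.

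All 42 genes were described by level. Tests are given for called genes (after serum, for the 15 with the greatest WT change, others in ranges), for the 3 smallest p of each genotype comparison, and for Fos and Jun. Other genes come from 3 pathway lists and lists of cell type markers, as counts with at most 4 examples. Genes and lists were chosen with earlier results of these data known. Intervals and floors cover counting error only. Hspa1a and Hspa1b are near-identical copies whose reads the counting may split. Promoter sequences are from RefSeq, and proteins and other genome sequence were not used here. Part of the tumour genotype is not reported here.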

Additional observations from a re-analysis of the deposited data

Results flagged for a closer look

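A library was far from the rest of its group, by the gap to its nearest neighbour over the group's range, in 2 of 26 groups of 4 to 6 libraries looked at, and chance gives about 1 in 20. Sik1 was at 26.24 CPM in CD8 WT replicate 1 (ratio 0.895), below the other 3 WT libraries. Jun was at 241.6 CPM in bulk dKO replicate 6 (ratio 0.645), above the other 5 dKO tumours.

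The genotype difference pointed in opposite directions without overlap in 3 genes. Of all genes, 34.8% were lower without overlap in starved and 33.6% in serum-treated dKO iDFs. Without overlap, 31.6% of all genes were higher in serum-treated dKO iDFs, 7.09% in dKO CAFs and 4.09% in dKO CD8+ T cells. The share of all genes with opposite directions was not counted, so the 3 genes have no share to be set against. Fosl1, a Fos relative, gave -0.429 ± 0.628 (log2, SE) in starved and 1.002 ± 0.422 in serum-treated iDFs, neither of them called. The interaction that tests this difference gave 1.43 ± 0.76 (SE, adjusted p = 1, edgeR quasi-likelihood test). Egr2 gave -0.555 ± 0.393 in starved iDFs and 0.368 ± 0.149 in CAFs, neither of them called. Sik1 gave -0.633 in starved iDFs, -0.495 in serum-treated iDFs and 1.202 in CD8+ T cells. The differences of Egr2 and Sik1 between sources were not tested.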

How the results depend on the processing

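Counts of the 42 genes called are given in turn. Serum response: 30 in WT iDFs (19 to 30 with 1 library left out, 19 without WT 0 min replicate 2) and 37 in dKO iDFs (23 to 36, with 24 and 23 without dKO 0 min replicates 1 and 2). The interaction called 0 genes under every alternative run, though Jun and Junb passed the adjusted p with a replicate block. Starved iDFs: 1 higher became 3 with DESeq2, 3 with a length offset, 8 higher and 1 lower without the fold threshold, and 1 to 4 higher and 0 to 1 lower with a library left out (4 without dKO 0 min replicate 2). Serum-treated iDFs: 5 higher became 4 with no filter, 13 higher and 2 lower without the fold threshold, and 3 to 6 higher and 0 to 1 lower with a library left out (3 without WT 30 min replicate 2 or dKO 30 min replicate 1). CAFs: 1 higher became 7 without the fold threshold, 0 without the sex term and 0 to 2 with a library left out. CD8+ T cells: 1 higher became 4 with DESeq2, 5 with no filter, 0 with RLE size factors, 0 with a length offset and 0 to 0 with a library left out. Bulk melanomas stayed at 0 under every alternative run. WT CAFs against bulk gave 39 to 40 higher and WT CD8+ T cells 23 to 25 higher and 13 to 14 lower with a library left out. Where a library left 1 iDF culture in a group, that culture was assumed to vary like those of the other groups.

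With a library left out, the direction turned for 10 of 42 genes in starved iDFs, 14 in serum-treated iDFs, 25 in the interaction, 4 in CAFs, 15 of 41 in CD8+ T cells and 22 of 41 in bulk melanomas, and for none in the serum or source comparisons. Of these, Fos ranged from -0.264 to 1.256 in the interaction (also -0.044), from -0.495 to 0.448 in starved iDFs (also -0.196) and from -0.196 to 1.326 in serum-treated iDFs. Jun ranged from -0.027 to 0.159 in starved iDFs (also -0.005) and from -0.139 to 0.21 in bulk melanomas (also -0.079). The cause was not tested.

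Over protein-coding transcripts alone, the median TPM of the 42 genes moved from 23.6 to 30.9 in bulk WT, 24.9 to 36.1 in bulk dKO, 29.8 to 41.9 in CD8 WT, 30.4 to 46.4 in CD8 dKO, 247.2 to 278.2 in CAF dKO, 16.6 to 24.1 and 116.4 to 161.9 in WT iDFs at 0 and 30 min, and 19.5 to 28.3 and 161.7 to 228.3 in dKO iDFs. TPM is rescaled to fewer transcripts there.

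A replicate block in iDFs (which added 7 serum calls in WT and lost that of Myc) gave 2 genes called higher in starved iDFs in place of 1, 36 and 38 for serum in WT and dKO and 6 in serum-treated iDFs. Deviations of same-numbered libraries correlated at 0.0181 to 0.132 over all genes, above 0.1 in 4 of 6 pairs of groups, and strongly over the 42 genes alone. The labels do not say that a number marks a shared experiment, so pairing is not settled and the fit without the block was kept. With 2 cultures a group, uneven genes such as Fos, Egr1 and Klf10 have wide errors.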
